A study of Mus musculus with 2 samples.

Results

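The nuclear receptors described here are 35 genes of the steroid, thyroid, lipid-sensing and orphan receptor families, taken as a fixed list of gene symbols and matched to the gene annotation, a rule that uses no measured value. All 35 were found among the 43346 Ensembl genes in the deposited tables, 21474 of which are protein-coding. They were measured by total RNA sequencing in newborn mouse kidney. Each of the 2 libraries came from both kidneys of 1 B6NCrl pup at postnatal day 0, and the 2 pups shared a mother. Each library was made from 10 ng of RNA longer than 200 nucleotides with spike-in RNA added, and the sex of the pups was not recorded. Both pups belong to 1 group, so the comparisons below are between receptors within the kidney and between the 2 littermates, and no p-value is available.

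Nuclear receptors are transcription factors, most of which carry a zinc-finger DNA-binding domain, which reads variants of the sequence AGGTCA, and a ligand-binding domain that recruits coactivators or corepressors. Steroid receptors wait in complex with chaperones and bind DNA as homodimers, many lipid, bile acid and thyroid hormone receptors pair with a retinoid X receptor, and orphan receptors act without a known or needed ligand. In the kidney, members of the family act in nephron patterning, fatty acid oxidation in the proximal tubule, bile acid and cholesterol handling, and steroid control of ion transport.

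The 2 libraries held 41584961 expected counts in pup 1 and 48823952 in pup 2, where an expected count is a read count estimated per gene after sharing out ambiguous reads. Levels are given as TPM, a share of all transcripts that corrects for their length, as the mean ± SD of the 2 pups where 1 value is given. The 8 kidney markers Pax2, Pax8, Wt1, Umod, Slc12a1, Aqp2, Slc34a1 and Lrp2 were all present, with a summed level of 1353 TPM in pup 1 and 1344 TPM in pup 2. The near-equal sums hide opposite differences between the pups. Aqp2 measured 547 TPM in pup 1 and 638 TPM in pup 2, while Slc34a1 measured 287 TPM in pup 1 and 203 TPM in pup 2. Whole kidney holds many cell types, so a low level can mean few cells of a type or little RNA per cell, and these cannot be told apart here. The labels do not say that the libraries differ in anything but the pup, and the SD covers the spread between these littermates only.

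Of the 35 receptors, 22 reached 1 TPM in both pups, against 61.5% of protein-coding genes (13214 of 21474). The median receptor stood at 3.03 TPM in pup 1 and 2.87 TPM in pup 2, and the median protein-coding gene at 4.81 TPM in pup 1 and 4.62 TPM in pup 2. Among genes that reached 1 TPM in both pups, the median was 8.80 ± 0.339 TPM for the receptors and 17.8 ± 0.693 TPM for all protein-coding genes (SD, n = 2). Receptor RNA was uneven: 3 receptors averaged above 50 TPM, 5 lay between 10 and 50 TPM, 15 between 1 and 10 TPM and 12 below 1 TPM. The 3 most abundant, Nr2f2, Nr2f6 and Nr1h2, carried 57.0% of the summed receptor level of 457 TPM in pup 1 and 59.6% of the 466 TPM in pup 2.

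**Figure D1:**
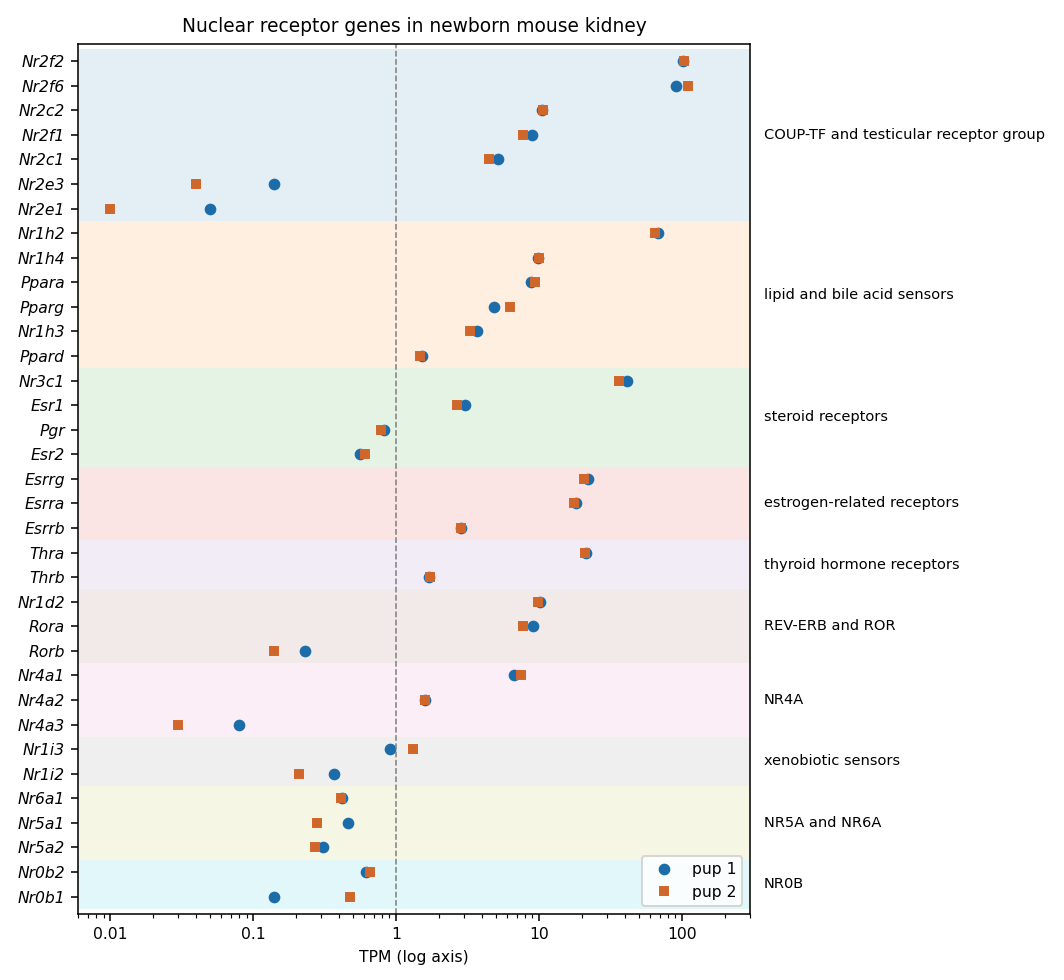
Level of each of the 35 receptors in TPM (log axis), grouped by class, with a circle for pup 1 and a square for pup 2; the dashed line marks 1 TPM. The points of the 2 pups lie close together for most genes above 1 TPM and spread apart for the receptors with few counts at the left.

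The order of the receptors was nearly the same in both littermates, with 18 of 35 at the same rank and a Spearman correlation of 0.992 across the 35 genes, which are not independent replicates. Of the 34 neighbouring places in the order by mean level, 19 were separated by more than the range of the pups and 15 overlapped. The steps from Nr2f6 to Nr1h2, from Nr1h2 to Nr3c1 and from Nr3c1 to Esrrg were each clear of the pup ranges. Nr2f2 could not be placed above Nr2f6, nor Esrrg above Thra, and below Nr6a1 none of the neighbours were separated.

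The COUP-TF and testicular receptor group, orphan receptors that often act as repressors or as organisers of embryonic tissue, held the largest share of receptor RNA, 47.6% of the summed level in pup 1 and 50.7% in pup 2. Nr2f6, a COUP-TF relative also called EAR2, lies on the minus strand at chr8:71374123-71381960 (mm10) and measured 90.98 TPM in pup 1 and 109.74 TPM in pup 2. The deposited intervals of the Nr2f6 estimate, 87.9 to 93.7 TPM in pup 1 and 107 to 112 TPM in pup 2, did not overlap. Nr2f2, or COUP-TFII, a regulator of mesenchyme, veins and the early metanephric stroma, lies on the minus strand at chr7:70351944-70366735. It measured 101.87 TPM in pup 1 and 103.15 TPM in pup 2, from 10751 and 13449 expected counts. The pup ranges of Nr2f6 and Nr2f2 overlapped, with Nr2f6 below Nr2f2 in pup 1 and above it in pup 2.

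Nr2f1, or COUP-TFI, which patterns the forebrain and sensory organs, was far below its paralog at 8.96 TPM in pup 1 and 7.76 TPM in pup 2. A pair of related receptors was called separated when its log2 ratio of TPM + 1 had 1 sign in both pups and a mean beyond the 95th percentile of between-pup differences of genes at the level of the lower partner. That percentile was 0.41 for genes below 1 TPM, 0.53 between 1 and 10 TPM, 0.32 between 10 and 100 TPM and 0.26 above. By this rule 14 of 19 pairs were separated. The share of unrelated gene pairs that would pass was not computed, so this count shows nothing particular to related receptors. Nr2f1 over Nr2f2 was one of the separated pairs, at -3.47 ± 0.14 (log2, SD, n = 2). Nr2f6 over Nr2f2, at -0.04 ± 0.18, was not separated.

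Nr2c1 and Nr2c2, the testicular receptors TR2 and TR4, bind direct repeats of the half-site and were both present. Nr2c1 measured 5.17 TPM in pup 1 and 4.50 TPM in pup 2, and Nr2c2 10.53 TPM in pup 1 and 10.63 TPM in pup 2, so Nr2c1 over Nr2c2 came to -0.99 ± 0.13 (log2). It was -0.17, and no longer separated, when complete coding transcripts alone were summed. The retinal and forebrain receptors were close to absent: Nr2e3, of photoreceptors, had 3 and 1 expected counts in pups 1 and 2, and Nr2e1, or Tlx, of neural stem cells, had 2 and 1. At this depth a count of 3 corresponds to 0.0721 CPM, a count scaled to library size, in pup 1 and 0.0614 CPM in pup 2, so both genes were at or under the floor. Of 7 neuron markers 2 were at 1 TPM or more, with a summed level of 15.9 TPM in pup 1 and 13.3 TPM in pup 2.

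The lipid and bile acid sensors, which pair with retinoid X receptors, were all at 1 TPM or more, 6 of 6, and summed to 96.8 TPM in pup 1 and 95.01 TPM in pup 2. Nr1h2, or LXRβ, the broadly expressed oxysterol receptor, lies at chr7:44549616-44553951 (minus strand) and measured 68.12 TPM in pup 1 and 64.67 TPM in pup 2. Nr1h3, or LXRα, its paralog of liver and macrophages, measured 3.66 TPM in pup 1 and 3.28 TPM in pup 2. LXRβ over LXRα was 3.92 ± 0.03 (log2), the widest of the 19 pairs with 1 TPM added. With 0.1 TPM added it was 4.22, and the pairs with a partner near 0 were then wider, at 5.55 for Nr4a1 over Nr4a3 and 4.92 for Rora over Rorb. The macrophage markers C1qa, C1qb, C1qc, Csf1r, Adgre1, Lyz2, Cd68 and Mrc1 were all 8 at 1 TPM or more, with a summed level of 183 TPM in pup 1 and 198 TPM in pup 2. They did not share a direction: C1qb stood at 44.9 TPM in pup 1 and 55.1 TPM in pup 2, and Csf1r at 12.6 TPM in pup 1 and 10.5 TPM in pup 2. The part of these markers in the level of Nr1h3 was not tested. All 8 listed LXR targets reached 1 TPM in both pups, led by the lipoprotein gene Apoe at 442 ± 33.0 TPM, the phospholipid enzyme gene Lpcat3 at 74.4 ± 3.15 TPM and the desaturase gene Scd2 at 64.7 ± 0.113 TPM, with its relative Scd1 lowest at 1.68 ± 0.0778 TPM.

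The 3 PPAR genes, fatty acid sensors, stood in the order Ppara, Pparg, Ppard. Ppara, which drives fatty acid oxidation, measured 8.82 TPM in pup 1 and 9.35 TPM in pup 2. Ppard, the ubiquitous PPAR, measured 1.52 TPM in pup 1 and 1.48 TPM in pup 2, and Pparg, the adipogenic PPAR that in kidney is known from the collecting duct, 4.81 TPM in pup 1 and 6.30 TPM in pup 2. Ppara and Pparg were each clear of Ppard, at 2.01 ± 0.07 for Ppara over Ppard and -1.38 ± 0.25 for Ppard over Pparg (log2). Ppara over Pparg, at 0.63 ± 0.18, was less firm: it was 0.50 from pup 2 alone and 0.06 when complete coding transcripts alone were counted. All 12 listed PPAR targets were at 1 TPM or more, with a median of 39.0 ± 4.00 TPM, led by the fatty acid carrier gene Fabp4 at 548 ± 33.6 TPM, the peroxisomal thiolase gene Acaa1b at 62.1 ± 5.41 TPM and Cpt1a, the gate of mitochondrial fatty acid import, at 61.4 ± 7.59 TPM; the hydroxylase gene Cyp4a14 was lowest at 1.94 ± 0.134 TPM.

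Pparg has a pair of transcripts that begin at different promoters and encode PPARγ1, of 475 codons, and PPARγ2, the fat-cell form, of 505 codons. In pup 1 the deposited estimate gave all of the gene's level, 100%, to the γ1 transcript Pparg-202. In pup 2 it gave 90.4% to Pparg-202 and 9.56% to the γ2 transcript Pparg-201, which came to 0.60 TPM. The deposited posterior-mean estimate gave Pparg-201 more in both pups, 8.86% in pup 1 and 18.61% in pup 2, so the absence of the γ2 form from pup 1 depends on the estimate used. The fat markers were low in both pups, with none of 4 (Adipoq, Plin1, Cidec, Lep) at 1 TPM and a summed level of 0.48 TPM in pup 1 and 1.15 TPM in pup 2, and they did not move as one. Adipoq stood at 0.14 TPM in pup 1 and 0.71 TPM in pup 2 and Plin1 at 0.15 TPM in pup 1 and 0.29 TPM in pup 2, while Cidec stood at 0.19 TPM in pup 1 and 0.14 TPM in pup 2 and Lep at 0 in pup 1 and 0.01 TPM in pup 2. The part of these markers in the level of Pparg was not tested.

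The promoters of the 2 Pparg forms are shown because they differ widely in CpG content, as RefSeq windows from 250 bases before to 50 after an annotated start (GRCm38.p6, plus strand, 5′ to 3′; the first is chr6:115360894-115361193, which covers the annotated start of Pparg-202, and the second is chr6:115421816-115422115, at the start of Pparg-201; capitals mark AGGTCA).
Pparg γ1 side: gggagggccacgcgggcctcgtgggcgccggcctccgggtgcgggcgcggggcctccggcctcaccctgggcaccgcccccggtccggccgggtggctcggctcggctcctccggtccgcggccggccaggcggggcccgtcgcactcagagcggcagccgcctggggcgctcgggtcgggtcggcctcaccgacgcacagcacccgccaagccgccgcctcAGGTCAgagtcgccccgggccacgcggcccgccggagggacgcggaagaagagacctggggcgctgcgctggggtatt
Pparg γ2 side: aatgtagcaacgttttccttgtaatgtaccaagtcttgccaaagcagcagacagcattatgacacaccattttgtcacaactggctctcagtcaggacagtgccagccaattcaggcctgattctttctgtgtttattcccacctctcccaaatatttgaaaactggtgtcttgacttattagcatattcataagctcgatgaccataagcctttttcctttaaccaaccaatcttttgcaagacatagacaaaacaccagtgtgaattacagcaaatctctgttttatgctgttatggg
The γ1 window holds 44 CpG dinucleotides and 1 AGGTCA that begins at -28 from the RefSeq start, and the γ2 window holds 2 CpG and no AGGTCA on either strand. A further RefSeq window of Pparg, chr6:115362099-115362398, is not printed. It holds 13 CpG and 1 AGGTCA that begins at -9. The median over all 32851 mouse promoter windows was 7 CpG. A match to these letters describes the window and is not a binding site.

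Nr1h4, or FXR, the bile acid receptor, measured 9.87 TPM in pup 1 and 9.93 TPM in pup 2. Of its 3 coding transcripts, Nr1h4-201, of 484 codons, led with 81.3% in pup 1 and 80.1% in pup 2. Nr1h4-203, of 474 codons and from an upstream start, held 12.3% in pup 1 and 10.4% in pup 2. Of 5 listed FXR targets, 3 were at 1 TPM or more: Slc51b, the basolateral bile acid exporter subunit, at 31.8 ± 2.01 TPM, its partner Slc51a at 3.50 ± 0.099 TPM, and the apical bile acid importer Slc10a2 at 2.29 ± 0.488 TPM. The liver export pump gene Abcb11 was lowest, at 0.135 ± 0.163 TPM.

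Nr1h4 and Nr1d2 are shown because they, with Pparg, are the receptors above 5 TPM with AGGTCA in a window, on the opposite strand in Nr1h4 (chr10:89506609-89506908, minus strand, where the capitals read TGACCT) and on the same strand in Nr1d2 (chr14:18239057-18239356, minus strand).
Nr1h4: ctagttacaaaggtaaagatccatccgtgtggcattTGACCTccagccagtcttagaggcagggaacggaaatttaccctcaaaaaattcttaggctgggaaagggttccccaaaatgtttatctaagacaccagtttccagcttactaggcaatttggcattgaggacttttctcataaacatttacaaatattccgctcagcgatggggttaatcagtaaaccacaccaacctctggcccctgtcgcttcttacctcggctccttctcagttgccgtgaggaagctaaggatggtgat
Nr1d2: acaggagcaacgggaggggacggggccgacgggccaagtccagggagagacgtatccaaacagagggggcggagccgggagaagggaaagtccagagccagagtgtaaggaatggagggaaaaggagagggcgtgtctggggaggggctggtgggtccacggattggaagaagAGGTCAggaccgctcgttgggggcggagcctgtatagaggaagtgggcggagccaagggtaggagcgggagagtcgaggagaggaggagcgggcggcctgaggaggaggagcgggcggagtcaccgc
The half-site begins at -214 in Nr1h4 and at -77 in Nr1d2, counted from the RefSeq start. Of the 35 receptors, 32 had at least 1 RefSeq window and 45 windows in all; 8 of these 45 held AGGTCA on either strand, against 16.3% of all windows. Neither the extended site TCAAGGTCA nor direct repeats of AGGTCA with 1 or 4 bases between was found in any of the 45.

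Among the steroid receptors, Nr3c1, the glucocorticoid receptor, (chr18:39410545-39519421, minus strand) was the only one of the 4 listed above 10 TPM, at 41.25 TPM in pup 1 and 36.47 TPM in pup 2. The largest portion of this estimate lay in Nr3c1-208, a transcript with an incomplete coding sequence, at 56.7% in pup 1 and 57.3% in pup 2. The complete transcript Nr3c1-203, of 792 codons, held 31.0% in pup 1 and 35.6% in pup 2, and complete coding transcripts summed to 14.0 TPM in pup 1 and 13.6 TPM in pup 2. By reads the picture was the other way round, because Nr3c1-203 is long and took 63.2% of the gene's counts in pup 1 and 67.5% in pup 2.

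The genes that act with Nr3c1 were measured beside it. All 8 receptor chaperones, which hold steroid receptors ready for hormone, were at 1 TPM or more with a median of 312 ± 15.4 TPM, led by Hspa8 at 1593 ± 67.7 TPM, Hsp90ab1 at 1090 ± 82.8 TPM and Hsp90aa1 at 382 ± 10.7 TPM, with Fkbp5, itself a glucocorticoid-responsive gene, lowest at 14.6 ± 2.72 TPM. Hsd11b2, which inactivates corticosterone in the distal nephron, measured 35.4 ± 2.18 TPM, against 8.16 ± 1.36 TPM for Hsd11b1, which regenerates it, and 22.3 ± 0.156 TPM for H6pd, its cofactor supplier. Of 8 listed glucocorticoid receptor targets 7 were at 1 TPM or more, led by the kinase gene Sgk1 at 118 ± 2.08 TPM, Tsc22d3 (GILZ) at 76.1 ± 8.20 TPM and Errfi1 at 28.2 ± 0.141 TPM, with the transcription factor gene Zbtb16 lowest at 0.17 ± 0.0707 TPM.

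The sex steroid receptors were low. Esr1, estrogen receptor α, measured 3.03 TPM in pup 1 and 2.65 TPM in pup 2, and Esr2, estrogen receptor β, 0.56 TPM in pup 1 and 0.61 TPM in pup 2, so Esr1 over Esr2 was 1.28 ± 0.13 (log2). Pgr, the progesterone receptor and a classic estrogen target, measured 0.83 TPM in pup 1 and 0.78 TPM in pup 2, under 1 TPM in both. The leading Esr2 transcript differed between the littermates, since Esr2-203 held 82.5% in pup 1 and 25.7% in pup 2, on 49 and 68 counts for the gene. Of 3 listed estrogen targets, the lysosomal protease gene Ctsd, expressed in most tissues, measured 476 ± 16.2 TPM, Greb1 1.33 ± 0.382 TPM and Tff1 0.325 ± 0.304 TPM. The gonad markers were near absent, with 1 of 5 at 1 TPM, a summed level of 1.10 TPM in pup 1 and 1.15 TPM in pup 2, and Hsd17b3, Dmrt1 and Foxl2 at 0 in both pups.

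The estrogen-related receptors, orphan receptors that control mitochondrial genes together with the coactivators Ppargc1a and Ppargc1b, were all at 1 TPM or more and summed to 43.1 TPM in pup 1 and 41.3 TPM in pup 2. Esrra measured 18.05 TPM in pup 1 and 17.71 TPM in pup 2. Esrrb, known for pluripotent cells and the inner ear, measured 2.86 TPM in pup 1 and 2.87 TPM in pup 2. Esrrg, at chr1:187608791-188214885 on the plus strand, measured 22.18 TPM in pup 1 and 20.68 TPM in pup 2. Esrrb was thus the low one, with Esrra over Esrrb at 2.29 ± 0.02 and Esrrb over Esrrg at -2.54 ± 0.07 (log2), while Esrra over Esrrg, at -0.25 ± 0.05, was not separated. The order of Esrra and Esrrg turned with the transcripts counted: their log2 ratio was 0.44 when complete coding transcripts alone were summed. A short incomplete transcript, Esrrg-204, held 29.3% of the Esrrg estimate in pup 1 and 28.7% in pup 2 but 3.48% and 3.08% of its counts.

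All 6 listed estrogen-related receptor targets, which serve oxidative phosphorylation, were present with a median of 386 ± 8.94 TPM, led by Atp5b at 3039 ± 188 TPM, Cox5b at 898 ± 21.7 TPM and Sdhb at 541 ± 4.28 TPM, with the cytochrome c gene Cycs lowest at 105 ± 4.57 TPM. Of the coactivators, 11 of 11 measured were at 1 TPM or more, with a median of 15.6 ± 0.0141 TPM, led by the Mediator subunit gene Med1 at 41.2 ± 5.30 TPM, the chromatin remodeller gene Smarca4 at 35.6 ± 3.26 TPM and Ppargc1a at 24.7 ± 1.63 TPM, with Ppargc1b lowest at 4.85 ± 0.354 TPM. Corepressors had a median of 23.4 ± 0.530 TPM, with 10 of 11 at 1 TPM, led by Ncor1 at 103 ± 5.95 TPM, its partners Hdac3 at 76.3 ± 7.18 TPM and Gps2 at 51.8 ± 2.28 TPM, and Hr, the hairless corepressor of skin, lowest at 0.27 ± 0.0566 TPM.

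Of the thyroid hormone receptors, Thra (chr11:98740638-98769006, plus strand) was the main one, at 21.47 TPM in pup 1 and 20.83 TPM in pup 2, against 1.70 TPM in pup 1 and 1.72 TPM in pup 2 for Thrb. Thra over Thrb was 3.03 ± 0.04 (log2). Most of the Thra estimate lay in Thra-201, of 492 codons, the TRα2 form that does not bind hormone, with 66.5% in pup 1 and 69.6% in pup 2. The hormone-binding TRα1 form, Thra-202 of 410 codons, held 24.2% in pup 1 and 22.0% in pup 2. The 3′ part of Thra-201 overlaps Nr1d1, the REV-ERBα gene on the opposite strand, by 263 bases, 10.7% of the transcript, and Nr1d1 measured 2.56 TPM in pup 1 and 2.82 TPM in pup 2. Whether the counting used strand is not given in the sources used here, so reads from that overlap cannot be assigned with certainty.

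Thrb is shown because 1 of its RefSeq windows is rich in CpG, with 37, and holds an AGGTCA at -184. The level of Thrb is among the lowest of the receptors that passed 1 TPM. A further window of Thrb, chr14:17981394-17981693, is not printed and holds 4 CpG and no AGGTCA. The printed window is chr14:17660710-17661009 (plus strand).
Thrb: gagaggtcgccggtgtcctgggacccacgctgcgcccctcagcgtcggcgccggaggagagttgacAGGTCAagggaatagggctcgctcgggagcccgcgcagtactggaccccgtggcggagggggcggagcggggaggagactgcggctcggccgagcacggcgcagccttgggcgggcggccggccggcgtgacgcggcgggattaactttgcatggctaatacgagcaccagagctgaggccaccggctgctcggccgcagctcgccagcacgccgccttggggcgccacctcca
Of 7 thyroid hormone handling genes 4 were at 1 TPM or more, among them the cytosolic hormone-binding protein gene Crym at 34.5 ± 1.77 TPM and the transporter gene Slc16a10 at 5.95 ± 0.127 TPM, while the brain-barrier transporter gene Slco1c1 was lowest at 0.05 ± 0.0424 TPM.

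The clock-linked receptors bind the same response elements with opposite effects, REV-ERB as repressor and ROR as activator. Nr1d2, or REV-ERBβ, measured 10.10 TPM in pup 1 and 9.77 TPM in pup 2, and Rora, or RORα, 9.11 TPM in pup 1 and 7.73 TPM in pup 2. Rorb, of retina and brain, had 47 and 43 counts in pups 1 and 2, and Rora over Rorb was 2.99 ± 0.07 (log2). Rora-202, a form of 467 codons from a downstream start, held 73.9% of the Rora estimate in pup 1 and 72.7% in pup 2, and the longer Rora-201, of 523 codons, 11.4% in pup 1 and 12.95% in pup 2. By counts the gap was smaller, 56.9% in pup 1 and 53.4% in pup 2 for Rora-202, since Rora-201 is the longer RNA. Of 5 listed clock targets 4 were at 1 TPM or more in both pups, led by Cry1 at 22.7 ± 0.205 TPM, Nfil3 at 13.8 ± 0.262 TPM and Arntl at 9.97 ± 0.262 TPM, and Npas2 was lowest at 1.01 ± 0.099 TPM. The labels used here give no hour of collection.

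**Figure D2:**
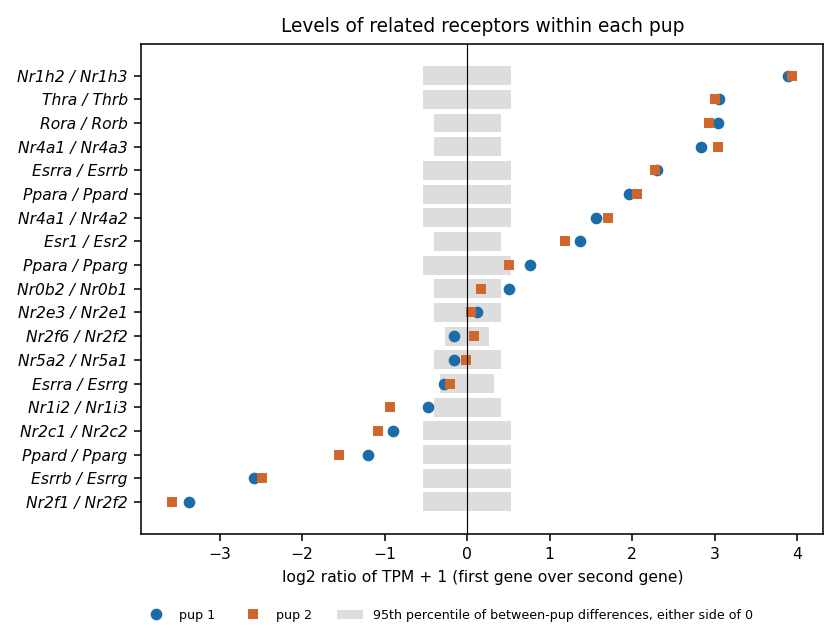
Log2 ratio of TPM + 1 between related receptors (first over second gene) in pup 1 (circles) and pup 2 (squares), with grey bars for the 95th percentile of between-pup differences at the level of the lower gene. LXRβ over LXRα, at 3.92, and Thra over Thrb, at 3.03, lie far to the right, Nr2f1 over Nr2f2, at -3.47, far to the left, and Nr2f6 over Nr2f2 sits within the grey bar.

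The NR4A receptors, immediate early genes that answer growth and stress signals without a ligand, were led by Nr4a1, or Nur77. Nr4a1 measured 6.69 TPM in pup 1 and 7.45 TPM in pup 2, Nr4a2 1.60 TPM in pup 1 and 1.59 TPM in pup 2, and Nr4a3 was listed with 6 counts in each pup. Nr4a1 over Nr4a2 was 1.64 ± 0.10 and over Nr4a3 2.93 ± 0.14 (log2).

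The xenobiotic sensors of liver, Nr1i3 (CAR) and Nr1i2 (PXR), were low. Nr1i3 measured 0.91 TPM in pup 1 and 1.32 TPM in pup 2, on either side of the 1 TPM level, and Nr1i2 0.37 TPM in pup 1 and 0.21 TPM in pup 2. Of the exon bases of Nr1i3, 74.9% lie under exons of Tomm40l on the opposite strand, a gene at 26.0 TPM in pup 1 and 25.2 TPM in pup 2, so the Nr1i3 value is uncertain. None of 4 xenobiotic targets reached 1 TPM: Abcb1a was highest at 0.255 ± 0.120 TPM, followed by Cyp3a13 at 0.13 ± 0.0283 TPM and Cyp3a11 at 0.105 ± 0.0636 TPM, and Cyp2b10 had 0 counts in both pups, which allows up to 0.0721 CPM in pup 1 and 0.0614 CPM in pup 2. Liver markers summed to 19.0 TPM in pup 1 and 10.9 TPM in pup 2, with 4 of 5 at 1 TPM or more and the hepatocyte gene Cyp7a1 at 0.02 TPM in pup 1 and 0 in pup 2, and their part in the Nr1i3 and Nr1i2 values was not tested.

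The NR5A, NR6A and NR0B receptors, which govern steroidogenic, germ and embryonic cells, were each below 1 TPM in both pups. Nr5a1, or SF-1, of adrenal and gonad, measured 0.46 TPM in pup 1 and 0.28 TPM in pup 2, and Nr5a2, or LRH-1, 0.31 TPM in pup 1 and 0.27 TPM in pup 2. Nr6a1, the germ cell nuclear factor, measured 0.42 TPM in pup 1 and 0.41 TPM in pup 2. Its deposited posterior means were higher, 1.10 TPM in pup 1 and 0.91 TPM in pup 2. Its place below 1 TPM in pup 1 thus depends on the estimate used. Nr0b2, or SHP, a corepressor that bile acids induce through FXR and that has no DNA-binding domain, measured 0.62 TPM in pup 1 and 0.66 TPM in pup 2.

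Nr0b1, or DAX-1, a partner of SF-1 in the adrenal cortex, measured 0.14 TPM from 7 counts in pup 1 and 0.48 TPM from 30 counts in pup 2. Its log2 ratio of pup 2 over pup 1 was 1.43 with a counting interval of 0.68 to 3.32 (95% exact). This was the widest ratio among the receptors, and Nr0b1 lies below the 50-count minimum set for calls. How many genes with so few counts differ as much was not computed. Of the adrenal cortex markers, Mc2r alone of 7 was at 1 TPM, the summed level was 3.10 TPM in pup 1 and 3.53 TPM in pup 2, and Cyp11b2 had 0 counts in both. Cyp11a1 stood at 0.25 TPM in pup 1 and 0.52 TPM in pup 2, while Star stood at 0.82 TPM in pup 1 and 0.63 TPM in pup 2 and Hsd3b1 at 0.23 TPM in pup 1 and 0.14 TPM in pup 2, so the markers did not share a direction. The part of these markers in the Nr0b1 value was not tested.

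Between the littermates the receptors differed about as much as genes in general. Of the 26 receptors that had 50 or more expected counts in 1 of the pups, none differed by 2-fold or more in CPM after TMM scaling (a scaling that assumes most genes are alike), against 0.587% of the 15150 genes tested (0.429% higher in pup 2 and 0.158% lower). With 26 receptors, a count of none cannot be told apart from that share. The median absolute log2 ratio was 0.087 for these receptors and 0.099 for all genes tested. The counting interval of the ratio of pup 2 over pup 1 excluded 0 for 7 of the 26, against 40.3% of all genes, and it covers counting error only. The 7 were Nr1i3 at a log2 ratio of 0.50 (0.02 to 1.03), Pparg at 0.47 (0.24 to 0.71), Nr2f6 at 0.37 (0.32 to 0.42), Nr4a1 at 0.25, Nr2c2 at 0.18, Esrrg at 0.14 and Nr2f2 at 0.12. For Nr1i3 the deposited TPM intervals overlapped, at 0.80 to 1.46 in pup 1 and 1.11 to 1.79 in pup 2. Its complete coding transcripts alone went the other way, at 0.83 TPM in pup 1 and 0.71 TPM in pup 2. All 7 were higher in pup 2 on this scale, but the direction hung on the scaling. In TPM, 11 of the 26 were higher in pup 2 and 15 lower, and Esrrg was among the lower ones. Under TMM 23 of the 26 were higher in pup 2, under library totals 18, under median-ratio size factors 22 and under spike-in totals 2, where the median of all genes shifted to -0.40. The median log2 ratio was 0.07 for the receptors and 0.01 for all genes under TMM. It was 0.05 for the receptors and -0.02 for all genes under library totals. Under median-ratio size factors these medians were 0.07 and 0.004, and under spike-in totals -0.33 and -0.40. The receptor median was thus the higher under each scaling. The share of all genes higher in pup 2 was not computed, so the direction counts show nothing particular to the receptors.

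**Figure D3:**
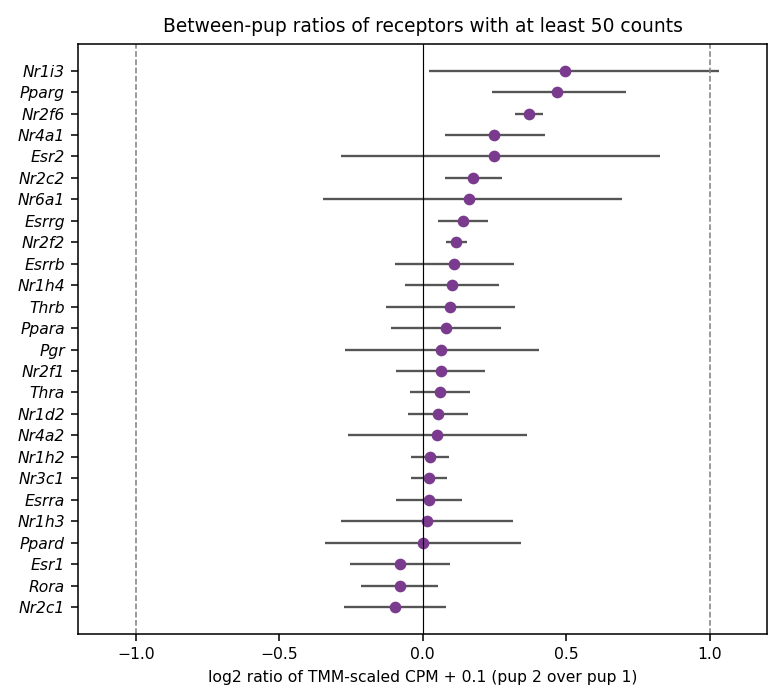
Log2 ratio of pup 2 over pup 1 in TMM-scaled CPM + 0.1 for the 26 receptors with at least 50 counts, with 95% counting intervals as bars; dashed lines mark 2-fold. No point reaches a dashed line, and Nr1i3, Pparg and Nr2f6 lie highest.

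Transcript make-up varied among the receptors of at least 5 TPM. The leading complete coding transcript took nearly all of the level for Nr4a1, at 100% in both pups, Nr2f6, at 97.3% in pup 1 and 97.8% in pup 2, Esrra, at 97.0% in pup 1 and 93.0% in pup 2, and Nr1d2, at 96.3% in pup 1 and 97.2% in pup 2. Nr2f2 was divided, with Nr2f2-201, of 414 codons, at 78.0% in pup 1 and 78.6% in pup 2 and Nr2f2-202, of 281 codons and an upstream start, at 22.0% in pup 1 and 21.4% in pup 2. Nr2f1-201 held 62.0% in pup 1 and 75.0% in pup 2. Nr2c2 was split between Nr2c2-201, at 44.0% in pup 1 and 47.2% in pup 2, and Nr2c2-205, annotated for nonsense-mediated decay, at 39.9% in pup 1 and 38.6% in pup 2. Ppara-201 held 44.5% in pup 1 and 44.4% in pup 2. Nr1h2 had no stable leader: Nr1h2-201 led in pup 1, with 30.8% in pup 1 and 13.5% in pup 2, and Nr1h2-204 led in pup 2, with 26.8% in pup 1 and 38.1% in pup 2. Nr1h2-203 held 19.9% in pup 1 and 36.8% in pup 2. These shares are estimates made by the authors, and the gene's summed level differed far less between the pups.

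**Figure D4:**
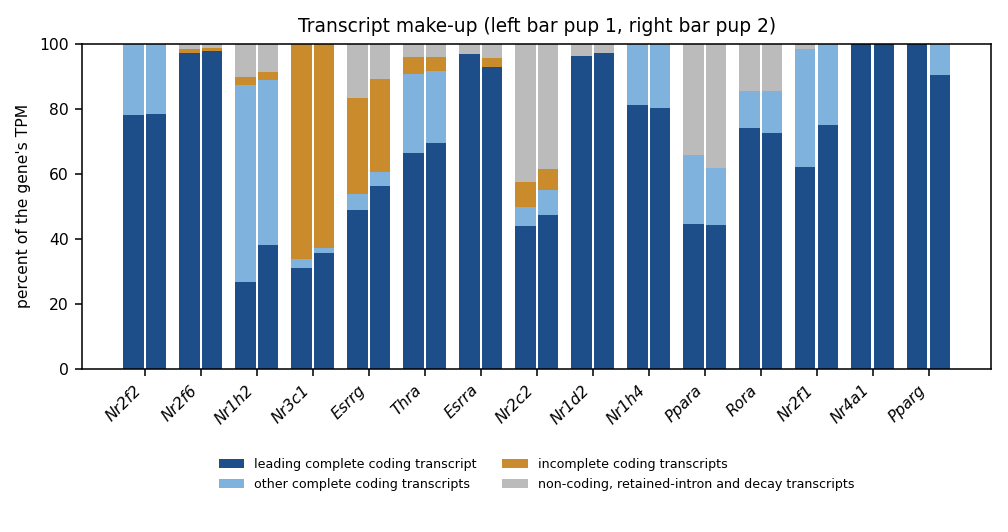
Share of each gene's TPM by transcript type for the 15 receptors of at least 5 TPM, in percent, with the left bar for pup 1 and the right bar for pup 2. Incomplete coding transcripts take most of Nr3c1, and the decay and non-coding class a large share of Nr2c2 and Ppara.

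Some receptors overlap genes on the opposite strand, which bears on their counts. Nr2f6 shares 54.4% of its exon bases with Ocel1, which measured 6.94 TPM in pup 1 and 6.43 TPM in pup 2, far below Nr2f6. Nr2c2 shares 30.7% of its exon bases with Mrps25, a mitochondrial ribosomal gene at 88.3 TPM in pup 1 and 75.7 TPM in pup 2, far above Nr2c2. Nr2f2-202 shares 38.6% of its bases with B130024G19Rik, at 21.2 TPM in pup 1 and 20.3 TPM in pup 2, close to the level of that transcript.

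The retinoid receptors, which pair with many of the receptors above, were at 1 TPM or more for 5 of 6, led by Rxrb at 35.1 ± 1.14 TPM, Rarb at 23.0 ± 1.90 TPM and Rara at 21.1 ± 0.849 TPM, with Rxrg lowest at 0.575 ± 0.191 TPM. Of 6 other receptors all were at 1 TPM or more, led by Hnf4a, of proximal tubule, at 18.6 ± 1.99 TPM and the vitamin D receptor Vdr at 17.5 ± 1.48 TPM, with Hnf4g lowest at 1.71 ± 0.113 TPM.

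**Figure D5:**
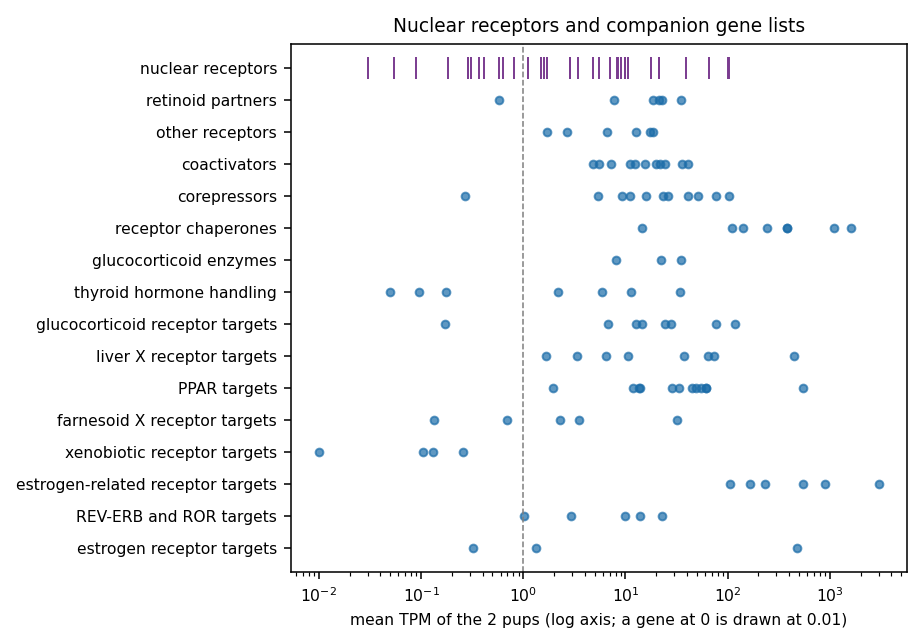
Mean TPM of the 2 pups (log axis) for the receptors (ticks, top row) and for each companion list (points); the dashed line marks 1 TPM. Estrogen-related receptor targets and chaperones lie furthest right, and all 4 xenobiotic targets lie left of the line.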

How the data were processed

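Total RNA from 2 newborn kidney samples was sequenced, and the authors deposited gene and transcript tables. Per the file headers and the deposited description, these hold expected counts, TPM and FPKM in the style of RSEM, posterior-mean estimates, an IsoPct percent per transcript and interval bounds of TPM, kept as a deposited signal; reads were mapped to mm10 with GENCODE M4. Identifiers and lengths are other deposited columns. Strand use in counting is not given in the sources used here. FPKM was not used. Spike-in and unnamed features were kept out of receptor values.

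Symbols, coordinates and transcript types came from GENCODE M21 (GRCm38) by identifier without version. Receptors and lists were chosen with earlier results of these data known. All 35 receptors are named; in companion lists the 3 highest and the lowest are named, except for some genes not reported here. Transcripts are described for receptors of at least 5 TPM, and for Esr2, which was chosen after its values were seen. A gene was counted as present at 1 TPM in both pups. Ratios between pups used TMM (edgeR 4.0.16, R 4.3.3), CPM + 0.1 and a minimum of 50 expected counts in either pup, with exact 95% binomial intervals that cover counting error only. Pair ratios used log2 of TPM + 1. The ratio code was tested on simulated data. Promoter windows came from RefSeq (GRCm38.p6), and motifs were searched on both strands; protein sequences were not used here. Other steps ran in Python 3.11.15 (SciPy 1.17.1 for intervals, NumPy 2.4.6 and pandas 2.3.3 for tables, Matplotlib 3.10.9 for figures).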

Additional observations from a re-analysis of the deposited data

How the results depend on the processing

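No paired analysis was possible because the 2 pups form 1 group. The number of receptors at the detection level was 22, and 26 at 0.5 TPM, 19 at 2 TPM, 23 on posterior means and 22 on complete coding transcripts. The median receptor, 2.95 TPM, was 3.11 TPM on posterior means, 3.20 TPM after rescaling and 8.80 TPM among detected receptors. With a minimum of 10 counts, or none, 1 receptor (Nr0b1) differed by 2-fold. The share of all genes that did so at these minima was not computed, so this call has no background. Leaving out a pup gave 22 to 23 detected receptors, medians of 2.87 to 3.03 TPM and 13 to 15 separated pairs, against 14; a pseudocount of 0.1 TPM gave 16, posterior means 14, CPM 15 and complete coding transcripts 13, an alternative chosen after seeing the data. Nr0b2 over Nr0b1 became separated at a pseudocount of 0.1 TPM (0.99) and without pup 2 (0.51), and Nr2e3 over Nr2e1 at 0.1 TPM (0.51). On the CPM scale, which ignores length, Nr2f6 over Nr2f2 (-0.81) and Esrra over Esrrg (-0.83) became separated. Ppara over Pparg (0.45) was no longer separated on that scale. Depth limits receptors under 50 counts, and 1 group of 2 littermates limits the rest.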
